A study of Mus musculus with 7 samples.

Results

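A group of 5 genes of haemoglobin production was followed through ovaries of mice without Abcg5 and Abcg8, whose products export cholesterol and plant sterols from cells. They are the adult alpha globins Hba-a1 and Hba-a2, the adult beta globins Hbb-bs and Hbb-bt, and Alas2, the erythroid enzyme of the first step of haem synthesis. They are 5 of 34866 genes in the table, found by matching Ensembl IDs to these symbols, and all 5 passed the filter on low values (at least 1 TPM in at least 2 libraries). They were chosen on their TPM values in these same libraries, so their levels and differences are given as a description, with no test.

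RNA of whole ovaries from mice aged 8 to 12 weeks was sequenced in 7 libraries. They comprised 2 from fertile knockout mice on a diet labelled VOFD, 3 from infertile knockout mice on a diet labelled CD and 2 from fertile wild type mice that were also fed CD. The knockout mice of both diets lack the same genes, so the VOFD and CD knockout groups differ in diet and in fertility together. Each ovary was homogenised singly, and nothing states that every library came from a different animal, so the spread between libraries may be partly technical. Values are TPM, a transcript's share of the library scaled by its length, which is therefore per length and sums to the same total in each library. TPM keeps no sequencing depth, so the number of reads behind a value is unknown.

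Abcg5 and Abcg8 were at 0.0268 to 0.212 TPM and 0 to 0.157 TPM over all libraries, wild type included, so the knockout could not be checked from their levels. The share of TPM from mitochondrially encoded genes was 11.7% to 18.3%, and 14267 to 14982 genes reached 1 TPM in a library. Pearson correlation of log2(TPM + 1) within groups was 0.939 to 0.981.

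Adult haemoglobin is a tetramer of alpha and beta globin chains, each holding a haem. In red cell precursors the globin genes are transcribed at very high rates, haem is made in step with them from the product of ALAS2, and young red cells that have lost their nucleus still carry globin mRNA into the circulation. A piece of whole tissue therefore contains globin mRNA from the blood in its vessels, and haemoglobin transcripts have also been reported in granulosa and cumulus cells of the mouse ovary. In humans, loss of ABCG5 or ABCG8 causes sitosterolaemia, in which misshapen red cells, haemolysis and large platelets are known features.

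The sequences before the transcription starts show how alike the members are in the stretch where erythroid factors are known to act. They are the 250 bases before each RefSeq start on GRCm38.p6, in the direction of transcription, and the capitals mark TATAA (the TATA box), CCAAT (the CCAAT box), CACCC (bound by KLF1, the erythroid Krüppel-like factor) and GATAA (bound by GATA1) on either strand, with adjoining or overlapping matches run together. The windows are chr11:32296242-32296491 on the plus strand for Hba-a2, chr7:103827929-103828178 on the minus strand for Hbb-bs, chr7:103813924-103814173 on the minus strand for Hbb-bt and chrX:150547167-150547416 on the plus strand for Alas2. Hba-a1 is not printed, because its window matched that of Hba-a2 at 247 of 247 aligned bases. The GENCODE gene spans given below begin inside these windows for every member, at 103828096 for Hbb-bs. Part of each window therefore lies within the gene by that annotation.
Hba-a2: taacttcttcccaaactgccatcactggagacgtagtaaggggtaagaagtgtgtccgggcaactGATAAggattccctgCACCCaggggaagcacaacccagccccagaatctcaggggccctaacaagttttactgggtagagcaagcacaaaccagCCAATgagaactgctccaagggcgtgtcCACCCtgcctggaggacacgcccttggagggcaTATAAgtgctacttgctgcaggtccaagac
Hbb-bs: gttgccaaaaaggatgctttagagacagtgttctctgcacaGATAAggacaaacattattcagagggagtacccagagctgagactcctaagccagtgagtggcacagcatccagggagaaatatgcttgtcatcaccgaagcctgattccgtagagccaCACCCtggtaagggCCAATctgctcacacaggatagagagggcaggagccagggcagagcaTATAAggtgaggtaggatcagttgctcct
Hbb-bt: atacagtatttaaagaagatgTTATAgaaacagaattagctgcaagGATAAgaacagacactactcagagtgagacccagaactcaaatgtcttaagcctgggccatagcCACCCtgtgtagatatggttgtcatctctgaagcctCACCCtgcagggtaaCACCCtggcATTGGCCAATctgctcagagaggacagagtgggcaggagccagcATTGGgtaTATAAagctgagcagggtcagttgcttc
Alas2: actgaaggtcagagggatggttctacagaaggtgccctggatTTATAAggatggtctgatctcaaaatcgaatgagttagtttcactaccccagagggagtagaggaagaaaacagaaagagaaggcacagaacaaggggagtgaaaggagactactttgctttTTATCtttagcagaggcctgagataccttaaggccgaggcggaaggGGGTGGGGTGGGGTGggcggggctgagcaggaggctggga
The TATA, KLF1 and GATA1 motifs each occurred in the windows of 5 of the 5 members, and the CCAAT box in 4 of 5, with Alas2 the exception. Among 32851 RefSeq promoters searched in the same way, 22.8% held the TATA motif, 33.8% the CCAAT box, 52.0% the KLF1 motif and 22.6% the GATA1 motif. In the 4 globins, the TATA motif on the coding strand lay 23 to 30 bases before the RefSeq start. In Alas2 its only matches lay 203 to 208 bases before the start, not at the position of the globins' TATA box. The windows of Hbb-bs and Hbb-bt were 73.3% identical over 243 aligned bases, with 65 differences. A match is a run of letters and says nothing of binding in these ovaries.

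The coding sequences of each pair, taken from the GENCODE M21 transcripts, are nearly the same. Over the 429 coding bases, Hba-a1 and Hba-a2 differ by the single substitution C381T, and over 444 coding bases Hbb-bs and Hbb-bt differ by C417T, both at the third position of a codon and counted from the first coding base, with the first-named gene's base first. The stretches around these bases are shown because they are the only coding positions at which reads can tell the members of a pair apart, and the differing base is in capitals.
Hba-a1: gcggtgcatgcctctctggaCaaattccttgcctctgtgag
Hba-a2: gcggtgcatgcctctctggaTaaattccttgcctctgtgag
Hbb-bs: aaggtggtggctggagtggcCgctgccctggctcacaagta
Hbb-bt: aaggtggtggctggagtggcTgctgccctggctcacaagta
Of all 50-base windows of the Hba-a1 transcript, 67.5% occurred in the Hba-a2 transcript as well, and 65.8% of those of Hbb-bs occurred in Hbb-bt. How the authors assigned such reads is not given in the sources used here, so the split within a pair is uncertain and the sum of a pair is less so. The transcript models also differ in length, at 699 bases for Hba-a1, 554 for Hba-a2, 628 for Hbb-bs and 703 for Hbb-bt, and TPM divides by length.

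The alpha globins were higher in every infertile knockout CD library than in any fertile library. Hba-a1 (ENSMUSG00000069919.7, GRCm38 chromosome 11, 32283511 to 32284465, plus strand) had 89.3 and 90.4 TPM in the knockout VOFD libraries, 265, 399 and 199 TPM in the knockout CD libraries, against 107 and 57.0 TPM in the wild type CD libraries. Group means were 89.8 ± 0.73 TPM in knockout VOFD (SD, n = 2), 288 ± 102 TPM in knockout CD (n = 3), against 81.8 ± 35.0 TPM in wild type CD (n = 2). Its partner Hba-a2 (ENSMUSG00000069917.7, chromosome 11, 32296489 to 32297298, plus strand) had 243 and 255 TPM in knockout VOFD, 622, 939 and 436 TPM in knockout CD, against 241 and 154 TPM in wild type CD. For both genes knockout CD library 2 was highest and knockout CD library 3 lowest of its group, and the 2 fertile groups were close.

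The beta globins were likewise higher in every knockout CD library than in any fertile library. Hbb-bs, the more abundant adult beta globin (ENSMUSG00000052305.6, chromosome 7, 103826534 to 103828096, minus strand), had 308 and 339.6 TPM in knockout VOFD, 1119.8, 1439 and 549 TPM in knockout CD, against 425 and 206 TPM in wild type CD. Hbb-bt (ENSMUSG00000073940.3, chromosome 7, 103812524 to 103813996, minus strand) had 46.2 and 53.6 TPM in knockout VOFD, 193, 263 and 77.3 TPM in knockout CD, against 59.8 and 21.6 TPM in wild type CD. The knockout CD libraries stood above all 4 fertile libraries for both genes, but the gap was narrow, since the lowest knockout CD value of Hbb-bt was 77.3 TPM and the highest fertile value 59.8 TPM. Hbb-bs ranked 361 and 330 among all genes by TPM in the knockout VOFD libraries, 132, 109 and 216 in the knockout CD libraries and 270 and 558 in the wild type CD libraries.

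Alas2 (ENSMUSG00000025270.13, chromosome X, 150547375 to 150570638, plus strand) was far lower than the globins but separated the libraries in the same way. It had 2.20 and 2.49 TPM in knockout VOFD, 7.83, 9.86 and 5.58 TPM in knockout CD, against 3.36 and 1.70 TPM in wild type CD. Its annotated span overlaps Apex2, a DNA repair endonuclease gene, and Mir3620, and whether the counting used strand is not given in the sources used here. Hba-a1, Hbb-bs, Hbb-bt and Alas2 placed the 7 libraries in an identical order, with knockout CD library 2 first and wild type library 2 last, and Hba-a2 differed only in placing both VOFD libraries above wild type library 1. In all 7 libraries the order of levels per length was Hbb-bs, Hba-a2, Hba-a1, Hbb-bt and Alas2.

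**Figure D1:**
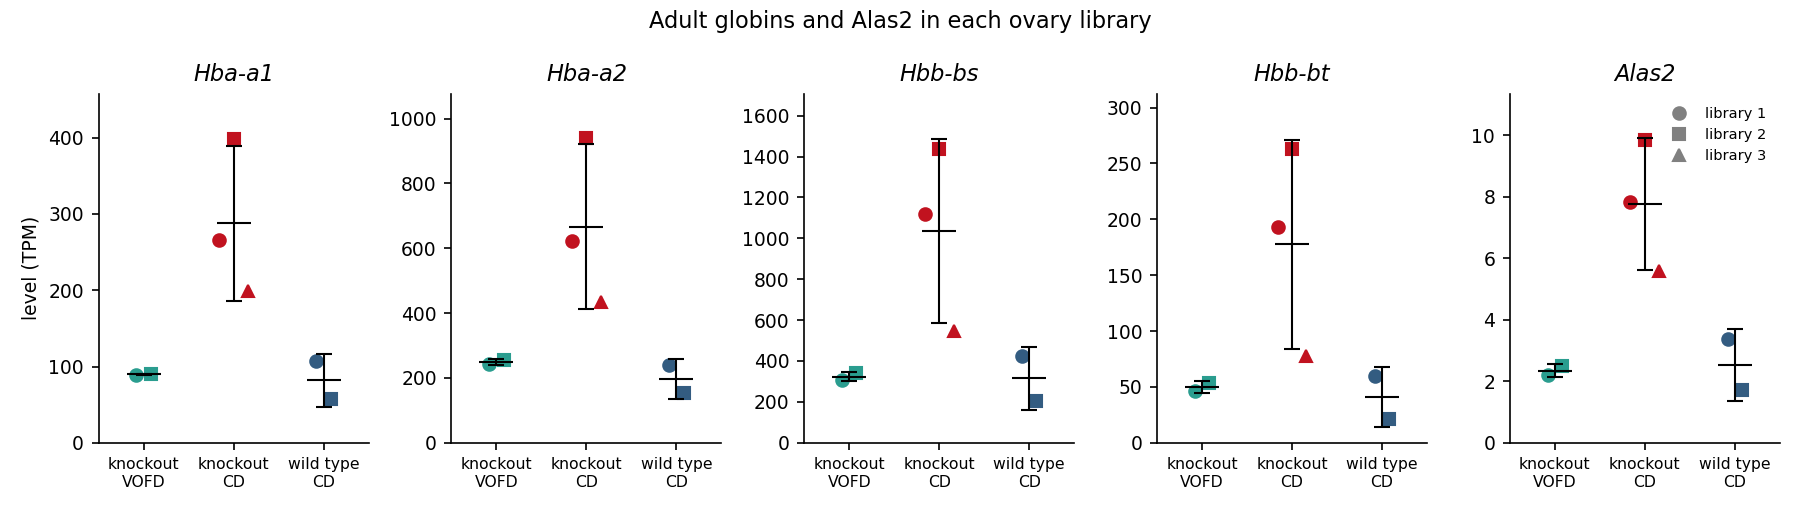
Level of each member in TPM in each of the 7 ovary libraries, by group, with the group mean and SD in black and the marker shape giving the library number. For every member the 3 knockout CD libraries lie above all 4 fertile libraries, and knockout CD library 2 is highest.

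Between infertile and fertile ovaries the members differed about 3-fold to 4-fold. The ratio of mean TPM, infertile knockout CD to the 4 fertile libraries, was 3.35 for Hba-a1, 2.98 for Hba-a2, 3.24 for Hbb-bs, 3.92 for Hbb-bt and 3.18 for Alas2. On the log2(TPM + 1) scale, which understates the change of a low gene such as Alas2, the differences were 1.71 (SE 0.26) for Hba-a1, 1.53 (SE 0.26) for Hba-a2, 1.63 (SE 0.33) for Hbb-bs, 1.87 (SE 0.44) for Hbb-bt and 1.34 (SE 0.24) for Alas2. The median difference of all 15487 tested genes was 0.15. For 5 of 5 members every infertile library lay above every fertile library, as 11.2% of all tested genes did, and nothing is read from such counts, in any comparison, because the members were chosen on these values.

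Knockout CD against wild type CD gave differences of 1.81 (SE 0.33) for Hba-a1, 1.71 (SE 0.31) for Hba-a2, 1.70 (SE 0.42) for Hbb-bs, 2.10 (SE 0.54) for Hbb-bt and 1.32 (SE 0.31) for Alas2 on the same log2 scale, where the median of all genes was 0.19. The 5 members all had knockout CD above wild type CD without overlap, as did 20.6% of all genes. The difference of Hbb-bt leaned on the wild type libraries: it was 2.81 without wild type library 1 and 1.39 without wild type library 2.

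Knockout VOFD against knockout CD gave the opposite sign. The log2 differences were -1.61 (SE 0.33) for Hba-a1, -1.34 (SE 0.31) for Hba-a2, -1.57 (SE 0.42) for Hbb-bs, -1.64 (SE 0.54) for Hbb-bt and -1.36 (SE 0.31) for Alas2, with a median of -0.10 over all genes. Both VOFD libraries were below all 3 knockout CD libraries for 5 of 5 members, as for 17.9% of all genes. This comparison and the one before it share the knockout CD libraries, so their opposite signs are not separate observations.

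The 2 fertile groups, knockout VOFD and wild type CD, differed by less than the residual SD between libraries. The log2 differences were 0.20 (SE 0.36) for Hba-a1, 0.37 (SE 0.34) for Hba-a2, 0.13 (SE 0.46) for Hbb-bs, 0.45 (SE 0.59) for Hbb-bt and -0.04 (SE 0.34) for Alas2. The groups did not overlap for 1 member, Hba-a2, whose VOFD libraries were both higher, as 24.6% of all genes were. With 2 libraries a group, this does not show that the levels were alike.

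The members were more variable than most genes within a group. The residual SD in the 3-group fit, on the log2 scale, was 0.47 for Hba-a1, 0.45 for Hba-a2, 0.63 for Hbb-bs, 0.82 for Hbb-bt and 0.36 for Alas2, against a median of 0.27 over all tested genes. The summed 4 globins came to 686 and 739 TPM in knockout VOFD, 2200.0, 3039 and 1261 TPM in knockout CD, against 832 and 438 TPM in wild type CD. That was 0.0687% and 0.0739% of all TPM in knockout VOFD, 0.220%, 0.304% and 0.126% in knockout CD and 0.0832% and 0.0438% in wild type CD. In whole tissue, a different number of globin-bearing cells and a different amount of globin RNA per cell cannot be told apart.

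The proportions between the members varied less than their levels. Hba-a2 was 2.72 and 2.82 times Hba-a1 in knockout VOFD, 2.35, 2.36 and 2.19 times in knockout CD and 2.26 and 2.70 times in wild type CD. Hbb-bs was 6.65 and 6.33 times Hbb-bt in knockout VOFD, 5.80, 5.48 and 7.10 times in knockout CD and 7.11 and 9.53 times in wild type CD. The knockout CD libraries overlapped the fertile ones in the beta ratio, and in the alpha ratio only wild type library 1, at 2.26, lay among them. Summed beta over summed alpha globin was 1.06 and 1.14 in knockout VOFD, 1.48, 1.27 and 0.987 in knockout CD and 1.40 and 1.08 in wild type CD, with overlap of all groups. The 4 globins summed to 312 and 296 times Alas2 in knockout VOFD, 281, 308 and 226 times in knockout CD and 247 and 258 times in wild type CD. The globins and Alas2 therefore stood in about the same proportion in infertile as in fertile ovaries, with an infertile minus fertile difference of -0.04 in the log2 ratio, although it became 0.29 when 1 TPM was added to both sums.

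**Figure D2:**
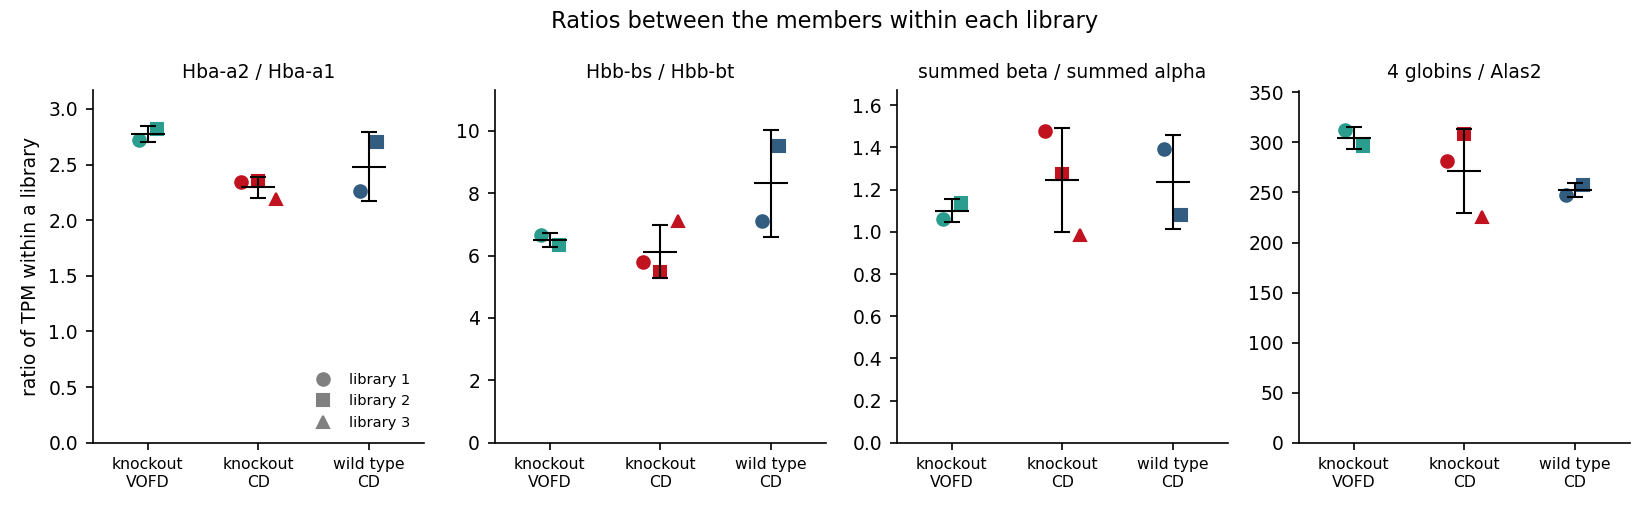
Ratios of TPM between members within each library, by group, with the group mean and SD in black. The groups overlap in the ratios of Hbb-bs to Hbb-bt, of summed beta to summed alpha globin and of the 4 globins to Alas2, and the knockout CD ratios of Hba-a2 to Hba-a1 run from 2.19 to 2.36.

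Genes other than the members were tested with limma on log2(TPM + 1), and passed at an adjusted p under 0.05 over all 15487 tested genes (Benjamini-Hochberg). Of the globins of other stages and tissues, all but cytoglobin were listed at 0 or low. Hba-x, Hbb-bh1 and Hbb-bh2, embryonic chains of the same clusters, were listed at 0 in all 7 libraries, and the embryonic Hbb-y, the theta-like Hbq1a and Hbq1b and the neuronal Ngb stayed under 1 TPM in each. Mb, the myoglobin of muscle, was at 0.649 and 0.801 TPM in knockout VOFD, 0.303, 0.623 and 2.89 TPM in knockout CD, against 0.161 and 0.531 TPM in wild type CD. Only Cygb, cytoglobin, made by fibroblast-like cells, was tested of these 9, at 62.5 and 67.3 TPM in knockout VOFD, 91.2, 71.5 and 88.5 TPM in knockout CD, against 61.5 and 64.8 TPM in wild type CD. Its infertile against fertile difference was 0.37 on the log2 scale and did not pass limma's test (adjusted p = 0.247), although the knockout CD libraries lay above the fertile ones.

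Several genes that define the red cell membrane were near the bottom of the range. Slc4a1, the band 3 anion exchanger, had 0.101 and 0.0467 TPM in knockout VOFD, 0.964, 0.82 and 2.10 TPM in knockout CD, against 0.0124 and 0.0505 TPM in wild type CD. It stood higher in every knockout CD library than in any fertile one, but was too low for the filter and was not tested. Epb42, Rhag and Kel, further membrane and blood group genes, stayed under 1 TPM in every library. Kel, at 0.361, 0.124 and 0.274 TPM in knockout CD, lay above the fertile range of 0 to 0.114 TPM, while Epb42 and Rhag overlapped. Of the 14 membrane genes 8 were tested and 0 passed in any of the 4 comparisons, with 1 (Icam4, the Landsteiner-Wiener blood group adhesion molecule) under an unadjusted p of 0.05 in infertile against fertile. Their median infertile against fertile difference was 0.08, against 0.15 over all tested genes.

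No erythroid regulator passed the test, and several were near 0. Klf1, the transcription factor that activates adult beta globin, and Nfe2, Gfi1b and Trim10 were under 1 TPM in every library, and the alpha chain chaperone gene Ahsp was not analysed here. Gata1, the erythroid and megakaryocytic master factor, had 9.16 and 7.84 TPM in knockout VOFD, 2.64, 4.33 and 4.24 TPM in knockout CD, against 5.47 and 6.47 TPM in wild type CD. All knockout CD libraries were below all fertile libraries, the reverse of the globins. The infertile against fertile difference of Gata1 was -0.80 on the log2 scale and did not pass limma's test (adjusted p = 0.188). Epor, the erythropoietin receptor gene, went the same way as the globins without overlap. It had 1.41, 1.52 and 1.27 TPM in knockout CD, against 0.801 to 1.14 TPM in the fertile libraries (limma log2 difference 0.33, adjusted p = 0.431). Of the 9 regulators measured, 5 were tested and 0 passed in any comparison, with 1 lower (Gata1) at an unadjusted p under 0.05 in infertile against fertile. Their median was -0.03.

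Haem synthesis outside Alas2 showed no change that passed. All 12 genes of this list were tested and 0 passed in any comparison. At an unadjusted p under 0.05 there were 0 in infertile against fertile, 0 in knockout VOFD against knockout CD, 1 in knockout CD against wild type CD and 1 in knockout VOFD against wild type CD. Alas1, the enzyme that carries the first step in cells other than red cells, had 72.7 and 60.8 TPM in knockout VOFD, 128, 51.5 and 112 TPM in knockout CD, against 65.6 and 102 TPM in wild type CD, with overlapping groups. Fech, ferrochelatase, which inserts the iron, had 29.8 and 29.2 TPM in knockout VOFD, 34.7, 28.8 and 41.4 TPM in knockout CD, against 24.6 and 29.2 TPM in wild type CD, and Slc25a37 (mitoferrin 1, the mitochondrial iron importer) had 9.67 and 7.54 TPM, 9.59, 13.1 and 9.01 TPM and 6.23 and 9.87 TPM in the same groups. For both, infertile and fertile libraries overlapped. The median infertile against fertile difference of the list was 0.21.

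Among red cell enzymes and maturation genes, 10 of 12 were tested and 0 passed in any comparison, with 4 higher at an unadjusted p under 0.05 in infertile against fertile and a median of 0.16. Car2, carbonic anhydrase 2, had 4.65 and 4.63 TPM in knockout VOFD, 9.02, 7.63 and 12.5 TPM in knockout CD, against 4.09 and 5.05 TPM in wild type CD, with no overlap. Its infertile against fertile difference was 0.91 on the log2 scale (limma, adjusted p = 0.0993, and 0.0486 without knockout CD library 1). Without that library 665 of all tested genes passed. Car1, the carbonic anhydrase most typical of red cells, and Trim58 stayed under 1 TPM in each library and were not tested. Car1 had 0.524, 0.409 and 0.184 TPM in knockout CD, above 0 to 0.151 TPM in the fertile libraries, while Trim58 overlapped.

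Iron and haem handling gave no call either. Of 12 iron genes 10 were tested and 0 passed in any comparison, with 3 higher at an unadjusted p under 0.05 in infertile against fertile and a median of 0.19. Trf, the plasma iron carrier transferrin, had 101 and 173 TPM in knockout VOFD, 395, 204 and 128 TPM in knockout CD, against 83.7 and 42.1 TPM in wild type CD (limma log2 difference 1.29 in infertile against fertile, adjusted p = 0.262). Fth1, the ferritin heavy chain that stores iron, had 1392 and 1519 TPM in knockout VOFD, 1713, 1591 and 2317 TPM in knockout CD, against 1346 and 1412 TPM in wild type CD, with knockout CD above all fertile libraries and an adjusted p of 0.262 by limma. Of 9 genes that clear haemoglobin and haem 7 were tested and 0 passed in any comparison, with 1 higher at an unadjusted p under 0.05 in infertile against fertile and a median of 0.39.

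Lrp1, which takes up haem bound to haemopexin, was that gene. It had 75.4 and 67.9 TPM in knockout VOFD, 102, 182 and 372 TPM in knockout CD, against 69.6 and 85.8 TPM in wild type CD. The infertile against fertile difference of Lrp1 was 1.35 on the log2 scale (limma, adjusted p = 0.164, and 0.00947 without knockout CD library 1). Without that library 665 of all tested genes passed. Hp, haptoglobin, which binds free haemoglobin, had 7.81 and 17.8 TPM in knockout VOFD, 62.1, 15.5 and 21.3 TPM in knockout CD, against 21.7 and 7.72 TPM in wild type CD, so the groups overlapped. The haem-degrading enzyme Hmox1, named after its values were seen, had 58.1 and 52.5 TPM in knockout VOFD, 101, 28.6 and 28.1 TPM in knockout CD, against 39.0 and 58.6 TPM in wild type CD, again with overlap.

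**Figure D3:**
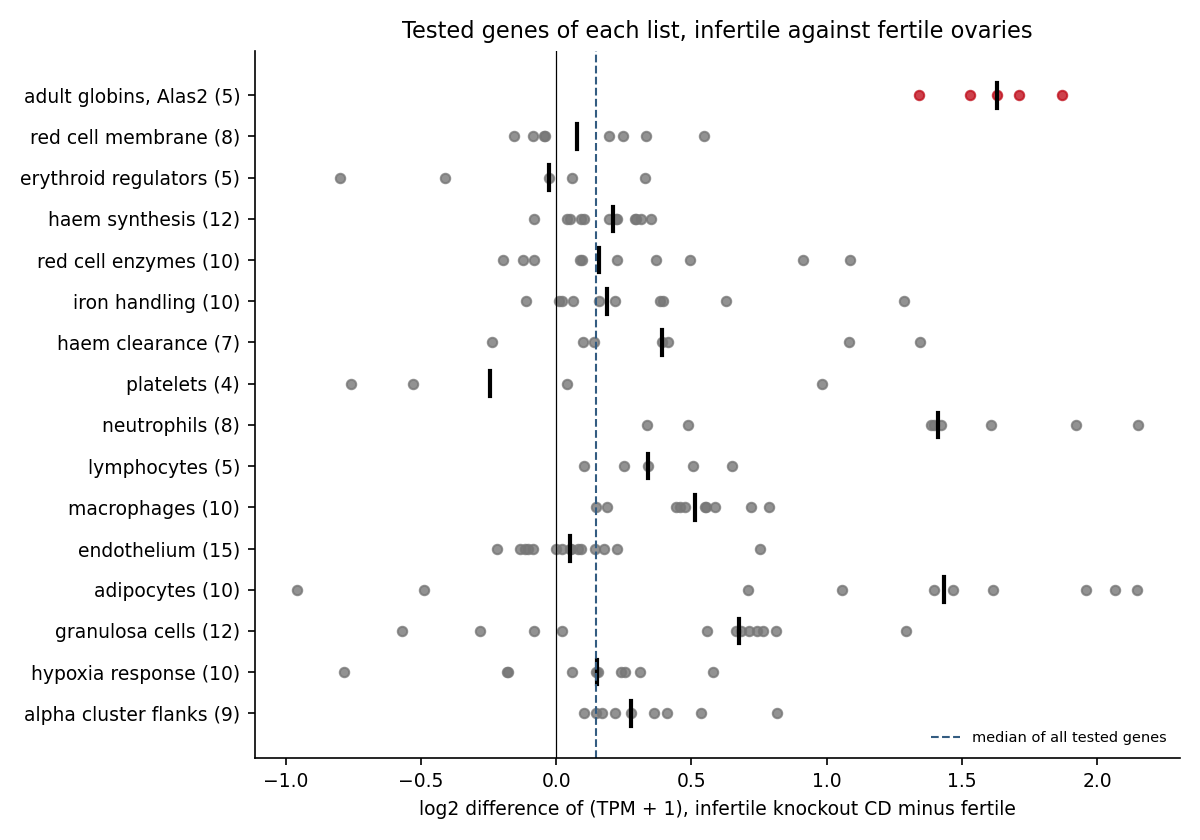
Log2 difference of (TPM + 1), infertile knockout CD minus fertile, for each tested gene of the 5 members and of 15 other lists, with the number tested in brackets, the list median as a black bar and the median of all tested genes (0.15) as a dashed line. The members lie between 1.34 and 1.87, and the lists with medians above 1 are neutrophils at 1.41 and adipocytes at 1.43. The list labelled alpha cluster flanks also holds genes on another chromosome.

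Markers of other blood cells, vessels and ovarian cell types were measured beside the globins. Summed platelet markers overlapped between the groups. Of 11 markers 4 were tested, 0 passed in any comparison, 1 was higher (Itga2b) and 1 lower (Gp1bb) at an unadjusted p under 0.05 in infertile against fertile, and Ppbp, Gp9, Gp6, Treml1 and Tubb1 were under 1 TPM in every library. Their summed level was 39.8 and 34.0 TPM in knockout VOFD, 45.8, 31.5 and 40.0 TPM in knockout CD, against 35.3 and 42.9 TPM in wild type CD. Gp1ba, too low for the filter and not tested, had 0.704, 0.818 and 1.73 TPM in knockout CD. That lay narrowly above its range of 0.496 to 0.694 TPM in the fertile libraries. Itga2b, the platelet integrin alpha IIb, had 4.40 and 4.73 TPM in knockout VOFD, 7.88, 7.29 and 10.4 TPM in knockout CD, against 4.26 and 2.18 TPM in wild type CD, with no overlap and an adjusted p of 0.145 by limma for its difference of 0.98.

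Summed endothelial markers overlapped between the groups as well. All 15 were tested, 0 passed in any comparison, 1 was higher at an unadjusted p under 0.05 in infertile against fertile, and the median was 0.05. Their summed level was 392 and 334 TPM in knockout VOFD, 446, 298 and 406 TPM in knockout CD, against 358 and 383 TPM in wild type CD. The library with the most globin, knockout CD library 2, had the lowest endothelial sum, at 298 TPM. Knockout CD library 1, with 2200.0 TPM of globin, had the highest, at 446 TPM. The part of vessel content in the globin difference was not tested.

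Neutrophil markers had the largest median difference of the blood cell lists, and their sum varied widely among the knockout CD libraries. Of 12 markers 8 were tested, 0 passed in any comparison, 5 were higher at an unadjusted p under 0.05 in infertile against fertile, and the median was 1.41. Their summed level was 11.7 and 21.1 TPM in knockout VOFD, 18.1, 151 and 114 TPM in knockout CD, against 13.0 and 13.1 TPM in wild type CD. Knockout CD library 1, with 2200.0 TPM of globin, had a neutrophil sum of 18.1 TPM, within the range of the fertile libraries, while knockout CD library 3, with 1261 TPM of globin, had 114 TPM. S100a9, at 65.8 and 40.3 TPM in knockout CD libraries 2 and 3, was at 4.57 TPM in library 1. Singly, 3 of the 8 tested markers (Camp, Ngp and Retnlg) had every infertile library above every fertile one, as 11.2% of all tested genes did. The other tested markers overlapped. Ngp and Retnlg were at 0.351 and 0.906 TPM in knockout CD library 1, against at most 0.0669 and 0.549 TPM in the fertile libraries. Camp, the neutrophil granule peptide cathelicidin, had 0.134 and 0.124 TPM in knockout VOFD, 3.09, 4.94 and 0.644 TPM in knockout CD, against 0.0993 and 0.134 TPM in wild type CD, so it was above every fertile library in library 1 as well (limma log2 difference 1.61, adjusted p = 0.14, and 0.0277 without knockout CD library 3).

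Summed adipocyte markers were higher in every knockout CD library than in any fertile library, but narrowly, at 1261 against 1205 TPM. Singly, 2 of the 10 tested markers had every infertile library above every fertile one, as 11.2% of all tested genes did. Of 11 markers 10 were tested, 0 passed in any comparison, and 7 were higher and 1 lower at an unadjusted p under 0.05 in infertile against fertile, with a median of 1.43. Their sum was 553 and 1205 TPM in knockout VOFD, 3043, 2049 and 1261 TPM in knockout CD, against 678 and 258 TPM in wild type CD. Cfd, the adipocyte protease adipsin, had 138 and 223 TPM in knockout VOFD, 828, 868 and 327 TPM in knockout CD, against 184 and 65.1 TPM in wild type CD, a difference of 2.15 (limma, adjusted p = 0.0955). The part of neutrophils and adipocytes in the globin difference was not tested.

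**Figure D4:**
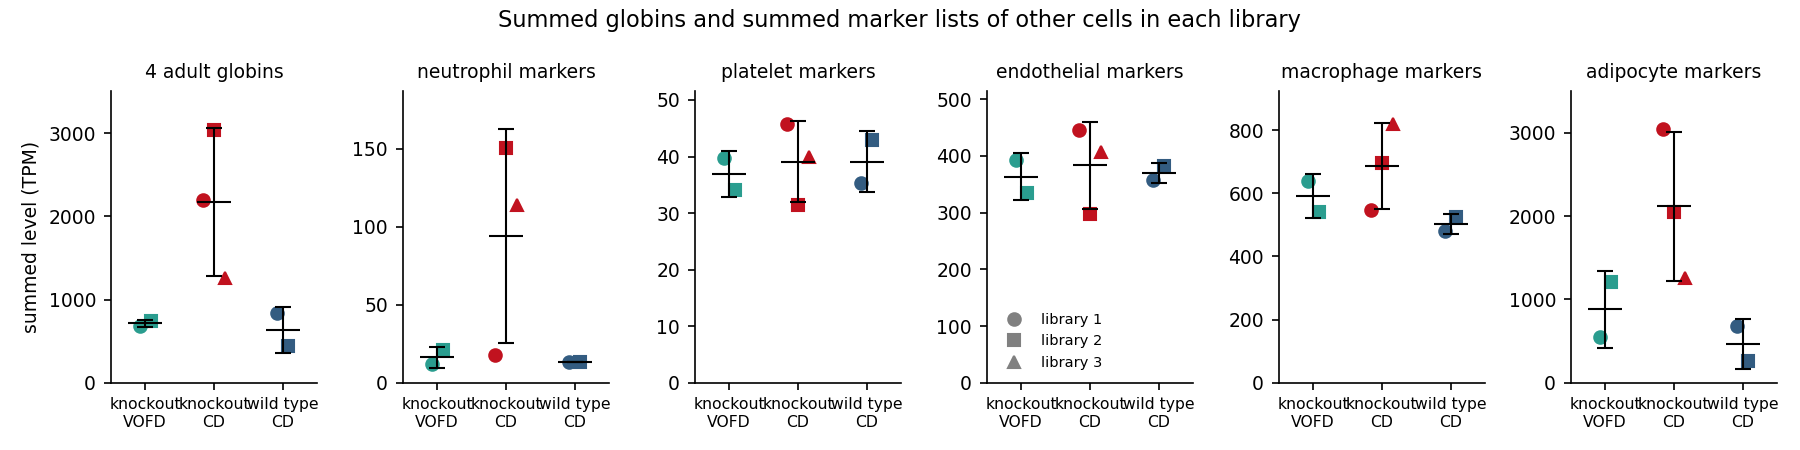
Summed TPM of the 4 adult globins and of 5 marker lists in each library, by group, with the mean and SD in black and the marker shape giving the library number. Platelet and endothelial sums overlap between groups, the neutrophil sum is high in knockout CD libraries 2 and 3 but 18.1 TPM in library 1, and the adipocyte sum is highest in knockout CD library 1, at 3043 TPM.

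Lymphocyte markers (5 of 9 tested), macrophage markers (10 of 10), granulosa cell markers (12 of 12) and hypoxia response genes (10 of 10) had 0 genes past limma's threshold in any comparison, with 2, 5, 4 and 2 genes higher and 0, 0, 0 and 1 lower at an unadjusted p under 0.05 in infertile against fertile. Their medians were 0.34, 0.51, 0.67 and 0.15 in that order. Among 11 theca, luteal and oocyte markers 1 passed, Ptgfr, the luteal receptor for prostaglandin F2 alpha, which was lower in infertile ovaries by limma (log2 difference -5.11, adjusted p = 9.8e-05), and the median was -0.50. Across all 17 lists beside the members, 147 of 188 genes were tested and Ptgfr was the only gene past the threshold in any of the 4 comparisons. The share of all tested genes past it, by limma with Benjamini-Hochberg adjustment, was 0.245% in infertile against fertile, 0.110% in knockout CD against wild type CD, 0.0452% in knockout VOFD against knockout CD and 0.0129% in knockout VOFD against wild type CD. At an unadjusted p under 0.05, 39 of the 147 were higher and 6 lower in infertile against fertile, where 15.4% of all tested genes lay under it in either direction. There were 28 higher and 6 lower in knockout CD against wild type CD (10.3% of all genes), 5 and 19 in knockout VOFD against knockout CD (7.94%) and 3 and 0 in knockout VOFD against wild type CD (1.99%). Without knockout CD library 1, 20 list genes passed the adjusted threshold in infertile against fertile, where 665 of all tested genes did. The counts were 8 in knockout CD against wild type CD (174 over all genes) and 6 in knockout VOFD against knockout CD (104).

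None of the 9 genes listed as flanks of the alpha globin cluster passed the test, and not all of them lie on its chromosome. Nprl3, whose introns hold the enhancers of the alpha globin genes, had 25.1 and 21.9 TPM in knockout VOFD, 29.0, 23.1 and 36.8 TPM in knockout CD, against 22.8 and 25.7 TPM in wild type CD, with overlapping groups and a difference of 0.28 on the log2 scale. All 9 genes of this list were tested and 0 passed in any comparison, with 2 higher at an unadjusted p under 0.05 in infertile against fertile and a median of 0.28. Snrnp25, Rhbdf1, Mpg and Nprl3 lie on chromosome 11 with the alpha globins. Luc7l, Fam234a, Arhgdig, Pdia2 and Axin1 lie on chromosome 17, so they are not beside the cluster. The counts and the median of the list cover both sets. The chromosome 11 genes had differences of 0.10 (Snrnp25), 0.15 (Rhbdf1), 0.22 (Mpg) and 0.28 (Nprl3), against 1.71 for Hba-a1 and 1.53 for Hba-a2.

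Across the 7 libraries, the genes whose profile was most like that of the members were sought among 10739 annotated protein coding genes with a mean of at least 5 TPM, as a description. Likeness was the root mean square difference between centred log2(TPM + 1) profiles, with a median of 0.909 over these genes. The closest was Tpsb2, a mast cell tryptase, at 0.352, with 4.29 and 4.05 TPM in knockout VOFD, 12.4, 19.1 and 6.96 TPM in knockout CD, against 6.39 and 4.72 TPM in wild type CD. It was followed by Cfd at 0.412, Adig (adipogenin) at 0.440, Aspa (aspartoacylase) at 0.443, Mlxipl (the carbohydrate response factor ChREBP) at 0.459, Retnla (a resistin-like cytokine) at 0.463, Chst1 (a sulphotransferase) at 0.471 and Srd5a1 (steroid 5 alpha-reductase) at 0.482. The members themselves lay 0.0918 (Hbb-bs) to 0.268 (Hbb-bt) from their mean. All 7 libraries are the same ones on which the members were chosen, so the list is a description of shared shape.

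**Figure D5:**
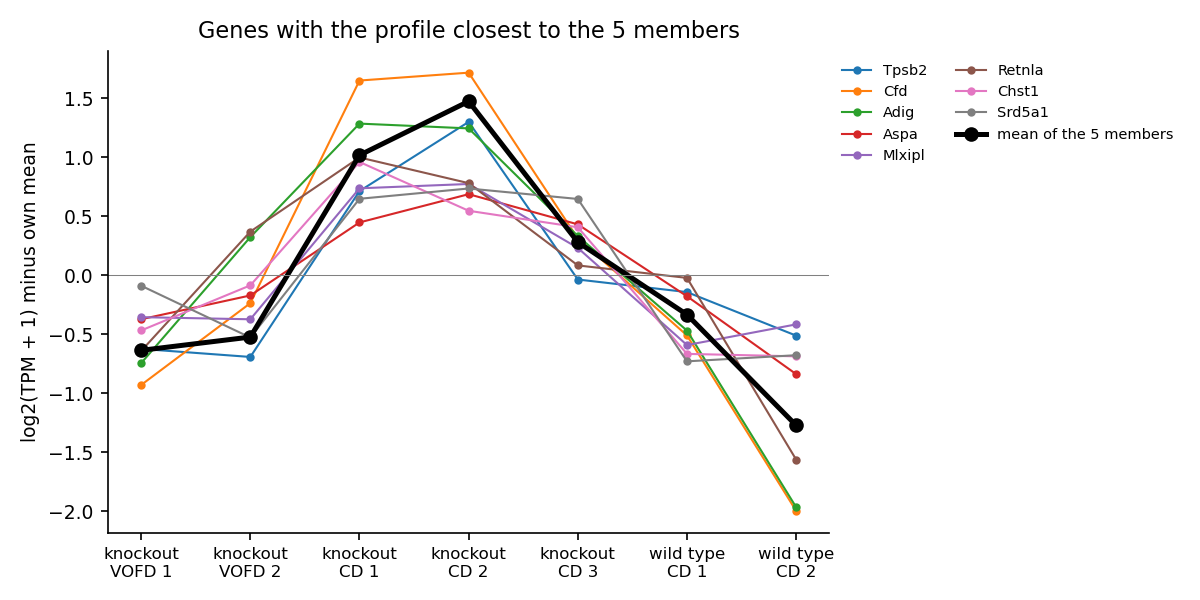
Centred log2(TPM + 1) of the 8 genes closest in profile to the members across the 7 libraries, with the mean of the 5 members in black; lines join the libraries of a gene for reading only. Retnla overlaps between infertile and fertile libraries, the other 7 genes are higher in every knockout CD library than in any fertile one, and Tpsb2, at a distance of 0.352, is closest to the mean.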

How the data were processed

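Values are TPM per gene, deposited by the authors for 34866 genes in 7 libraries. GRCm38 was the build per the submitters' processing notes. The aligner, counter, annotation and strand setting were not given in the sources used here. Symbols and coordinates came from GENCODE M21 (34582 IDs matched), and promoter sequences from RefSeq.

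Genes with at least 1 TPM in at least 2 libraries were kept (15487), and log2(TPM + 1) was fitted with limma 3.58.1 (R 4.3.3, data.table package 1.17.8) using an intensity trend, 2-sided. The 3 groups were compared in a single fit of the 7 libraries, which left 4 residual degrees of freedom, and infertile against fertile had 2 means, which left 5. P-values were adjusted over all tested genes by Benjamini and Hochberg at 0.05, and p-values measure only the spread between these libraries. The models were tested on simulated data.

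The members and the 17 other gene lists were chosen with earlier results of these data known. The lists are other globins, red cell membrane, erythroid regulators, haem synthesis, red cell enzymes, iron, haem clearance, platelets, neutrophils, lymphocytes, macrophages, endothelium, adipocytes, granulosa cells, theca with luteal and oocyte genes, hypoxia, and genes listed as flanks of the alpha cluster, some of which lie on another chromosome. From each, genes past the threshold and up to 3 with the smallest p could be named, together with defining genes near 0 and the 8 closest profiles. Alternatives changed the pseudocount, filter, scaling, variance prior, replicate block and libraries. TPM keeps no depth, so no counting interval was computed. Most genes of these lists are given as counts only, and some that this rule would name are not reported here.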

Additional observations from a re-analysis of the deposited data

Results flagged for a closer look

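Among 10 sets of values checked over the 4 fertile libraries (the members and their sums and ratios), 1 stood apart. Hba-a2 in wild type CD library 2, at 153.9 TPM, was the lowest of the fertile libraries and lay further from its nearest neighbour than the set limit for 4 values, with a gap of 0.859 of the range. Chance gives such a flag in about 1 in 20 groups.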

How the results depend on the processing

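The differences of the 5 members kept their sign in infertile against fertile, knockout CD against wild type CD and knockout VOFD against knockout CD under all 14 alternatives. In knockout VOFD against wild type CD the sign was kept under all of them for Hba-a2 alone, from 0.05 to 0.69. Median-of-ratios scaling moved the median of all genes in infertile against fertile to 0.00 and in knockout CD against wild type CD to 0.00.

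Counts of genes past the threshold moved more, and the cause was not tested. Infertile against fertile had 38 (9 higher, 29 lower), which became 4 with no filter on low values, 64 with median-of-ratios scaling, 59 with quantile normalisation, and 15 to 665 when 1 library was left out, the most without knockout CD library 1 (473 higher, 192 lower). Knockout CD against wild type CD had 17 (9 higher, 8 lower), which became 3 with no filter and 19 (7 higher, 12 lower) with median-of-ratios scaling, and 4 to 174 when 1 library was left out. Knockout VOFD against knockout CD had 7 (6 higher, 1 lower), which became 4 with a pseudocount of 0.1, and 3 to 104 when 1 library was left out. In both, the most came without knockout CD library 1 (105 higher and 69 lower of the 174, 51 higher and 53 lower of the 104). Knockout VOFD against wild type CD had 2, which became 7 with a pseudocount of 0.1, 5 with no filter and 5 with no intensity trend, and 2 to 14 when 1 library was left out, the most without knockout CD library 3.

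The replicate numbers were not shown to pair the libraries: the deviations of same-numbered libraries correlated at 0.0214 and -0.0932 for knockout CD with wild type CD, 0.0416 and 0.0458 for knockout VOFD with knockout CD and -0.186 for knockout VOFD with wild type CD. With the number as a block, which leaves knockout CD library 3 in a block of its own, the counts were 15 in infertile against fertile, 27 in knockout CD against wild type CD and 12 in knockout VOFD against wild type CD. With the VOFD numbers crossed in the block, an alternative added after seeing the data, the last count was 11.

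Of the other genes, Cd3g in knockout CD against wild type CD became -0.0068 with the block and, when 1 library was left out, ran from -0.0068 without knockout CD library 3 to 0.51. Plvap ran from -0.10 to 0.50 in knockout CD against wild type CD and from -0.17 to 0.43 in infertile against fertile, lowest without knockout CD library 1. The log2 ratio of globins to Alas2 moved to 0.29 with 1 TPM added, also chosen after seeing the data.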
